A study of Mus musculus with 6 samples.

Results

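The 9 genes described here encode transcription factors of the hepatocyte lineage: Hnf4a, Nr5a2, Prox1, Foxa1, Foxa2, Foxa3, Cebpa, Cebpb and Tbx3. They were chosen by name and not by a rule on their values, although earlier results of these data were known. They were found by matching the Ensembl identifiers of the deposited table, with the version dropped, to mouse symbols. The table lists 52550 genes, and all 9 are among them. The libraries hold RNA of GFP-positive cells that were sorted out of embryonic livers of CD-1 mice with the genotype Sox9-GFP, in which a green fluorescent reporter is made where the gene of the biliary transcription factor SOX9 is active. Each stage, E16.5 and E18.5, had 3 libraries, called replicates A, B and C. The same letter in both stages was not taken as a pair, so orders of letters shared by the stages are descriptions only. Both stages carried the same reporter and no treatment is given for either, so by the labels they differ in age alone. The labels give embryonic days 16 and 18 where the study writes E16.5 and E18.5. Each library came from a pool of livers from which blood-lineage cells had been removed with antibodies before the sort, so the p-values measure the spread between pools and not between embryos.

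Hepatoblasts are the common precursors of hepatocytes and of cholangiocytes, the cells that line the bile ducts. Their hepatocyte programme rests on a small group of transcription factors that bind one another's genes and the genes of plasma proteins, lipid transport and metabolism. HNF4A is the nuclear receptor at the centre of this network and is the protein by which hepatoblasts are told from cholangiocytes in sections of developing liver. FOXA factors open chromatin in the foregut endoderm before liver genes are switched on, C/EBP alpha drives metabolic genes of hepatocytes, and PROX1 and TBX3 are needed for hepatoblasts to expand and leave the liver bud.

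The RefSeq promoters of 5 of the genes are printed first. Hnf4a and Foxa3 stood lower in the older cells, and Prox1, Nr5a2 and Foxa2 stood higher. Of these, Foxa3 was not called in the main comparison described below. Tbx3, which was called lower there, had no RefSeq promoter and is not shown. Each sequence runs 5′ to 3′ on the strand of its gene, from 250 bases before a start site to 50 bases after it, on GRCm38.p6. Capitals mark matches, on either strand, to any of 8 short motifs. The letters GTTAAT stood for HNF1, while CAAAGTCCA was searched for HNF4 and TGTTTNC for the FOXA factors. For the ONECUT factors the letters were ATTGAT, for C/EBP factors TTGCNNAA and for GATA factors AGATAA. The NR5A receptors were searched as CAAGGTCA, and the core promoter element bound by TBP as TATAAA, called the TATA box here. No match overlapped another in the sequences shown. Hnf4a has an upstream and a downstream promoter, and both are shown because the table gives 1 value per gene and cannot tell which was in use. RefSeq also holds 2 windows for Nr5a2, 2 for Prox1 and 3 for Foxa2, of which the most upstream is shown.
Hnf4a upstream promoter, chr2:163506607-163506906, plus strand: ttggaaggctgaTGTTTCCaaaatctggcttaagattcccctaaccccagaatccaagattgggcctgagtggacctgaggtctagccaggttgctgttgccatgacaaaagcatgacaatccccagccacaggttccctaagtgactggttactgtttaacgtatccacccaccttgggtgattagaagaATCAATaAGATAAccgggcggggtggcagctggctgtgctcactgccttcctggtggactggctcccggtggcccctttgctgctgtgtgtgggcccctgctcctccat
Hnf4a downstream promoter, chr2:163546905-163547204, plus strand: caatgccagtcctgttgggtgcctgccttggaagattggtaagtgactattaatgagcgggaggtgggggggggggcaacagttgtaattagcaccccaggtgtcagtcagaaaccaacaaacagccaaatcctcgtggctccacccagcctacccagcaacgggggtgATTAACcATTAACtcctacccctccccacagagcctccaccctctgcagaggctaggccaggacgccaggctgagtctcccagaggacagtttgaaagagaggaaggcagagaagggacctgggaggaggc
Prox1, chr1:190170778-190171077, minus strand: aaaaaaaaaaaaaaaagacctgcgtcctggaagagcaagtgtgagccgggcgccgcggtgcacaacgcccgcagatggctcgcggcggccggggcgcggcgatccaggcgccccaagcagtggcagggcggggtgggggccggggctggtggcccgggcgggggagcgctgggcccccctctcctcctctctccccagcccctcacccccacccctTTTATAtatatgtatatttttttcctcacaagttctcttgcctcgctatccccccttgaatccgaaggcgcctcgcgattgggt
Nr5a2, chr1:136960399-136960698, minus strand: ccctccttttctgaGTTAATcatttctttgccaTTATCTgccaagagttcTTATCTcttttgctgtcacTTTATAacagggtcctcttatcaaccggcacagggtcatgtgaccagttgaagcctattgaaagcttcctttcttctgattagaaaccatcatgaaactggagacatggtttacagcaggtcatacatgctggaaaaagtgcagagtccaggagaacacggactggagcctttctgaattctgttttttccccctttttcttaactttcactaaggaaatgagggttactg
Foxa2, chr2:148046920-148047219, minus strand: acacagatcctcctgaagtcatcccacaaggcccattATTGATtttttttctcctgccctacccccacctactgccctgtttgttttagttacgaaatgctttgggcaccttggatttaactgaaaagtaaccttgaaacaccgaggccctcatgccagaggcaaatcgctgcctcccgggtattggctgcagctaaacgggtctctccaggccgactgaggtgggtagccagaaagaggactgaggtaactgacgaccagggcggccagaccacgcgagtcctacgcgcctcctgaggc
Foxa3, chr7:19023490-19023789, minus strand: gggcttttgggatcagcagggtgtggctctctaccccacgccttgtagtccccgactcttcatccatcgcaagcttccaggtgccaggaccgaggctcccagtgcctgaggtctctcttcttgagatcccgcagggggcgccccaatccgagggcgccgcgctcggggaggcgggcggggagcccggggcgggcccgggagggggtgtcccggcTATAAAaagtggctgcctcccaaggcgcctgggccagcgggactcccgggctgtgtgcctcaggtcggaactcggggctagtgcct

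The downstream promoter of Hnf4a held a pair of HNF1 matches on the minus strand, starting at positions -81 and -74 from the start site, a motif present in 7.10% of all 32851 RefSeq mouse promoters of this length. Its upstream promoter held a FOXA match at -238, an ONECUT match at -59 and a GATA match at -52, against 20.5%, 7.54% and 11.2% of all promoters. The Nr5a2 window held an HNF1 match at -236, GATA matches at -217 and -200 and TATA box letters at -181, and that of Foxa2 an ONECUT match at -213. In the Prox1 and Foxa3 windows shown the only matches were TATA box letters, at -34 on the minus strand and at -36 on the plus strand, a motif found in 13.6% of promoters. The windows not shown held a C/EBP match at -243 for Nr5a2, a FOXA match at -120 for Prox1, and HNF1, GATA and TATA box matches at -176, -183 and -208 in 1 of the 2 for Foxa2. No window of these 5 genes held the HNF4 or NR5A letters, and among those shown none held the C/EBP letters, which occur in 0.475%, 1.56% and 10.8% of all promoters. These matches describe the letters of the windows and no binding.

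Levels are given in TPM, the read count of a gene divided by its exon length and scaled so that each library sums to the same total, so levels of different genes can be set side by side. Recovered reads per library numbered 23193537 to 26206374 at E16.5 but 13093937 to 22643868 at E18.5, where all libraries were shallower. A gene of this group was covered by 30 to 20049 reads in a library. The stages were compared with limma on log2(TPM + 1) for the 22452 genes that averaged 1 TPM or more, and a gene was called where the Benjamini-Hochberg adjusted p, taken over all these genes, was under 0.05. Changes are log2 fold changes of E18.5 over E16.5 on that scale, so that changes of low genes are understated. The median change over all genes tested was 0.42, and median-of-ratios scaling, which sets the typical gene of each library to the same level, moved it to 0.011, so both scalings are given for the 9 genes and for the counts of the other lists. Because RNA of a whole sorted population was measured, fewer cells of a type and less RNA per cell cannot be told apart.

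The group split by stage. Prox1, Foxa2 and Nr5a2 were called higher at E18.5, Hnf4a and Tbx3 were called lower, and the other 4 genes, Foxa1, Foxa3, Cebpa and Cebpb, were not called. Of all genes tested, 26.0% were called higher and 5.22% lower. Under median-of-ratios scaling 2 members were called higher, Prox1 and Foxa2, and 3 lower, Hnf4a, Tbx3 and Foxa3, against 6.44% and 10.5% of all genes. The 3 libraries of each stage did not overlap for 4 members that stood higher at E18.5 and 3 that stood lower, beside 45.0% and 8.30% of all genes. The median change of the 9 genes was 0.17, below the 0.42 of all genes, and with median-of-ratios scaling it was -0.22. Summed over the group in TPM as deposited, the level was 646 to 709 TPM per library at E16.5, against 816 to 920 TPM at E18.5. Prox1 alone went from a mean of 140 to 328 TPM. Median-of-ratios scaling divided the E16.5 libraries by 0.765 to 0.935 and those of E18.5 by 1.13 to 1.29. The sum was not taken after that scaling, so it does not show that the group as a whole rose.

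**Figure D1:**
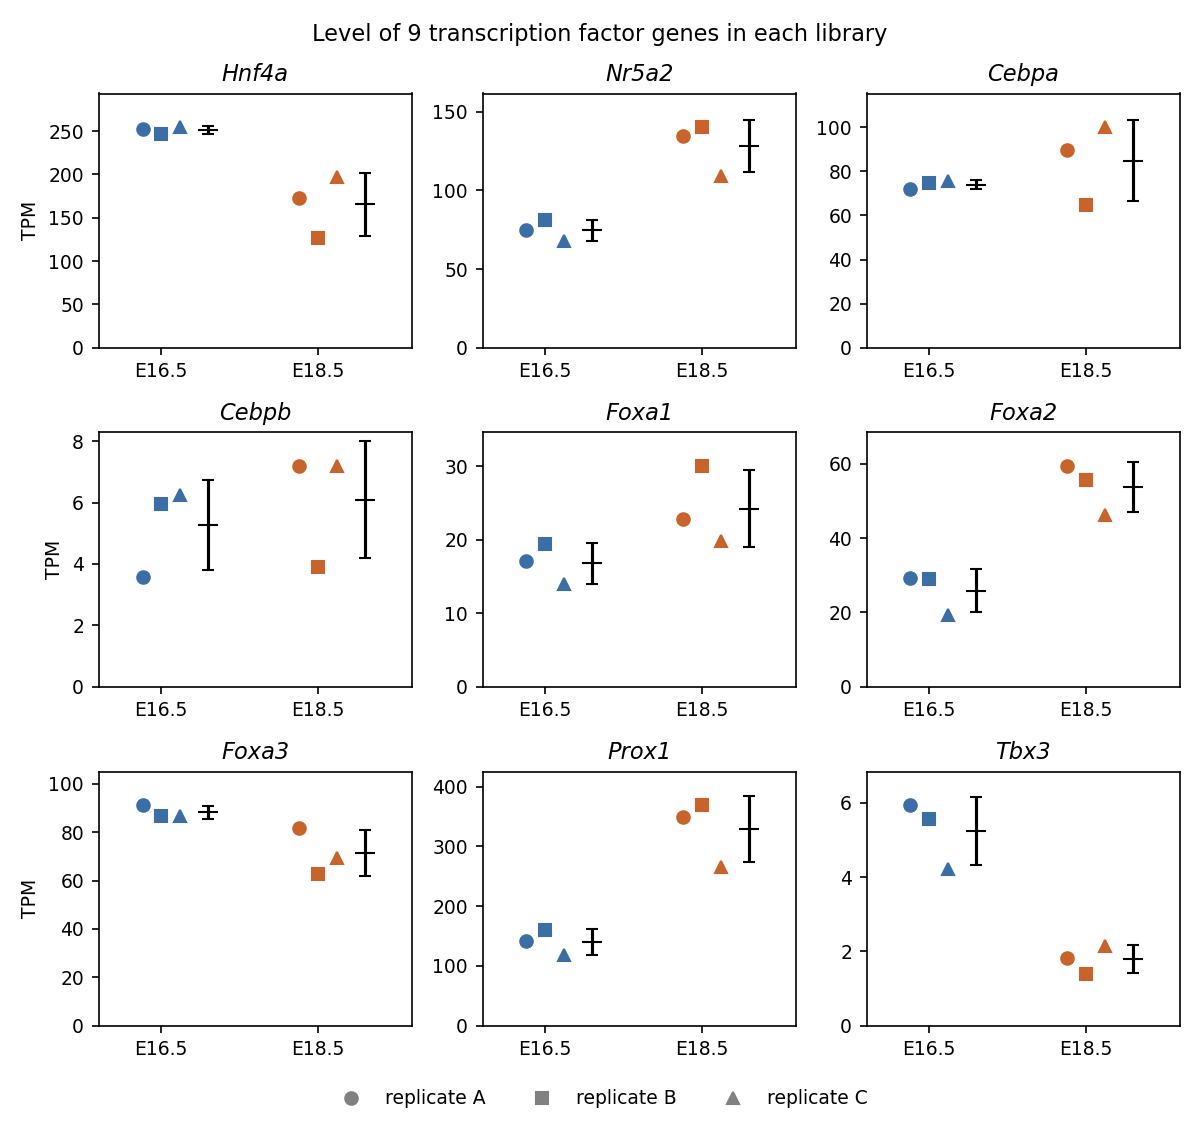
TPM of each of the 9 genes (vertical axes, starting at 0) in the 3 libraries of E16.5 (blue) and of E18.5 (orange); symbols give replicates A, B and C, and the black bars are the mean ± SD. Prox1, Foxa2, Nr5a2 and Foxa1 sat higher in every E18.5 library than in any E16.5 library, Hnf4a, Foxa3 and Tbx3 sat lower, and the stages of Cebpa and Cebpb overlapped.

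Hnf4a (ENSMUSG00000017950.16) lies at chr2:163506808-163572910 on the plus strand of GRCm38, with 4828 exonic bases in 13 blocks. Its level was 252, 247 and 255 TPM in E16.5 replicates A, B and C, but 173, 126 and 197 TPM in those of E18.5. The E16.5 libraries were nearly alike, the highest being 1.04 times the lowest, whereas at E18.5 the highest was 1.56 times the lowest and replicate B was the lowest. No E18.5 library reached the E16.5 level. The mean fell from 251 ± 4.42 to 165 ± 35.9 TPM (SD, n = 3), a log2 change of -0.62 (SE 0.17, 95% interval -1.03 to -0.22, limma adjusted p = 0.0330), and -1.09 with median-of-ratios scaling (limma adjusted p = 0.0261). The transcript of this hepatoblast factor was thus still abundant in the E18.5 cells, above 97.4% of protein-coding genes. The direction was the same under all 16 alternative settings, but the gene was called under 9 of them, with limma adjusted p from 0.0102 to 0.0795. Leaving out 1 library ended the call in 5 of 6 cases, and without E18.5 replicate B the change was -0.44 (limma adjusted p = 0.0505).

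Nr5a2 (ENSMUSG00000026398.14; chr1:136842571-136960448, minus strand) encodes LRH-1, a nuclear receptor that acts on genes of bile acid and cholesterol metabolism and is also strongly expressed in exocrine pancreas. Its level was 75.1, 81.0 and 67.7 TPM at E16.5, against 135, 141 and 109 TPM at E18.5, so that the lowest E18.5 library stood above the highest E16.5 library. In both stages replicate B was the highest and replicate C the lowest. The mean rose from 74.6 ± 6.64 to 128 ± 16.7 TPM (SD, n = 3), a log2 change of 0.77 (SE 0.14, 95% interval 0.45 to 1.09, limma adjusted p = 0.0132). With median-of-ratios scaling the change was 0.31 and was not called (limma adjusted p = 0.0827), and without E18.5 replicate A the adjusted p from limma was 0.0539. The 2 nuclear receptors of the group therefore moved in opposite directions, Hnf4a 1.04 below and Nr5a2 0.35 above the median change of all genes on the log2 scale.

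Prox1 (ENSMUSG00000010175.13; chr1:190118035-190170714, minus strand, 8390 exonic bases) encodes a homeobox factor that is expressed in hepatoblasts and hepatocytes and also specifies lymphatic endothelium. Its level was 142, 161 and 118 TPM at E16.5, against 349, 370 and 266 TPM at E18.5. All E18.5 libraries were well above all E16.5 libraries, and the replicates kept the order B, A, C from high to low in both stages. The mean rose 2.34-fold, from 140 ± 21.5 to 328 ± 55.2 TPM (SD, n = 3), a log2 change of 1.22 (SE 0.17, 95% interval 0.81 to 1.63, limma adjusted p = 0.00942), and 0.76 with median-of-ratios scaling (limma adjusted p = 0.0170). It was the largest rise of the group, and the only member called under every one of the 16 alternatives, with limma adjusted p from 0.00358 to 0.0434. At 328 TPM it stood above 99.1% of protein-coding genes at E18.5. The 10 endothelial and lymphatic markers summed to 98.6 to 169 TPM at E16.5, against 113 to 216 TPM at E18.5, and their part in the rise was not tested.

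The FoxA genes encode forkhead pioneer factors with nearly the same DNA-binding domain. Foxa2 (ENSMUSG00000037025.11; chr2:148042877-148046969, minus strand) was at 29.3, 29.0 and 19.3 TPM at E16.5, against 59.5, 55.6 and 46.2 TPM at E18.5. Replicate C was the lowest of each stage, yet at E18.5 it exceeded every E16.5 library. The mean of Foxa2 rose 2.08-fold, from 25.9 ± 5.74 to 53.8 ± 6.82 TPM (SD, n = 3), a log2 change of 1.04 (SE 0.19, 95% interval 0.59 to 1.50, limma adjusted p = 0.0139), and it was also called with median-of-ratios scaling, at 0.59 (limma adjusted p = 0.0361). Of the 16 alternatives only the one without E18.5 replicate A ended the call (limma adjusted p = 0.0553).

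Foxa1 (ENSMUSG00000035451.7; chr12:57540628-57546916, minus strand) was the lowest of the FoxA genes, at 17.0, 19.4 and 13.9 TPM at E16.5, against 22.8, 30.1 and 19.8 TPM at E18.5. The stages did not overlap, but by a narrow margin, since E16.5 replicate B and E18.5 replicate C were nearly level. Its log2 change of 0.50 (SE 0.20, 95% interval 0.026 to 0.97) was not called (limma adjusted p = 0.0941) and was 0.052 with median-of-ratios scaling.

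Foxa3 (ENSMUSG00000040891.6; chr7:19013284-19023538, minus strand) is expressed in hepatocytes throughout life. It was at 91.4, 86.6 and 86.6 TPM at E16.5, against 81.6, 62.9 and 69.3 TPM at E18.5. The highest E18.5 library was still lower than every E16.5 library, and replicate B was the lowest. The log2 change from 88.2 ± 2.79 to 71.3 ± 9.50 TPM (SD, n = 3) was -0.31 (SE 0.12, 95% interval -0.61 to -0.017) and was not called (limma adjusted p = 0.0931). With median-of-ratios scaling it was -0.77 and was called (limma adjusted p = 0.0230), and it was called under 4 of the 16 alternatives in all.

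Shares within a library do not depend on how libraries are scaled to each other. Foxa3 made up 66.4%, 64.1% and 72.3% of the summed FoxA level at E16.5, against 49.8%, 42.4% and 51.2% at E18.5. Foxa2 made up 21.3%, 21.5% and 16.1% at E16.5, against 36.3%, 37.4% and 34.2% at E18.5. The share of Foxa2 was higher by 16.3 percentage points and that of Foxa3 lower by 19.8 points at E18.5, and neither overlapped between the stages (exact permutation test, two-sided, p = 0.1 for each, the smallest that 3 libraries against 3 allow). Foxa1 held 12.8% ± 1.42 at E16.5, against 16.3% ± 3.46 at E18.5 (SD, n = 3), with overlapping libraries (exact permutation p = 0.2), a difference of 3.48 points that was 1.50 points without E18.5 replicate B. On average Foxa3 held 67.6% ± 4.23 of the FoxA level at E16.5, against 47.8% ± 4.75 at E18.5 (SD, n = 3). Leaving out any library left the difference of Foxa2 between 14.6 and 17.3 points and that of Foxa3 between -21.6 and -17.1 points.

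**Figure D2:**
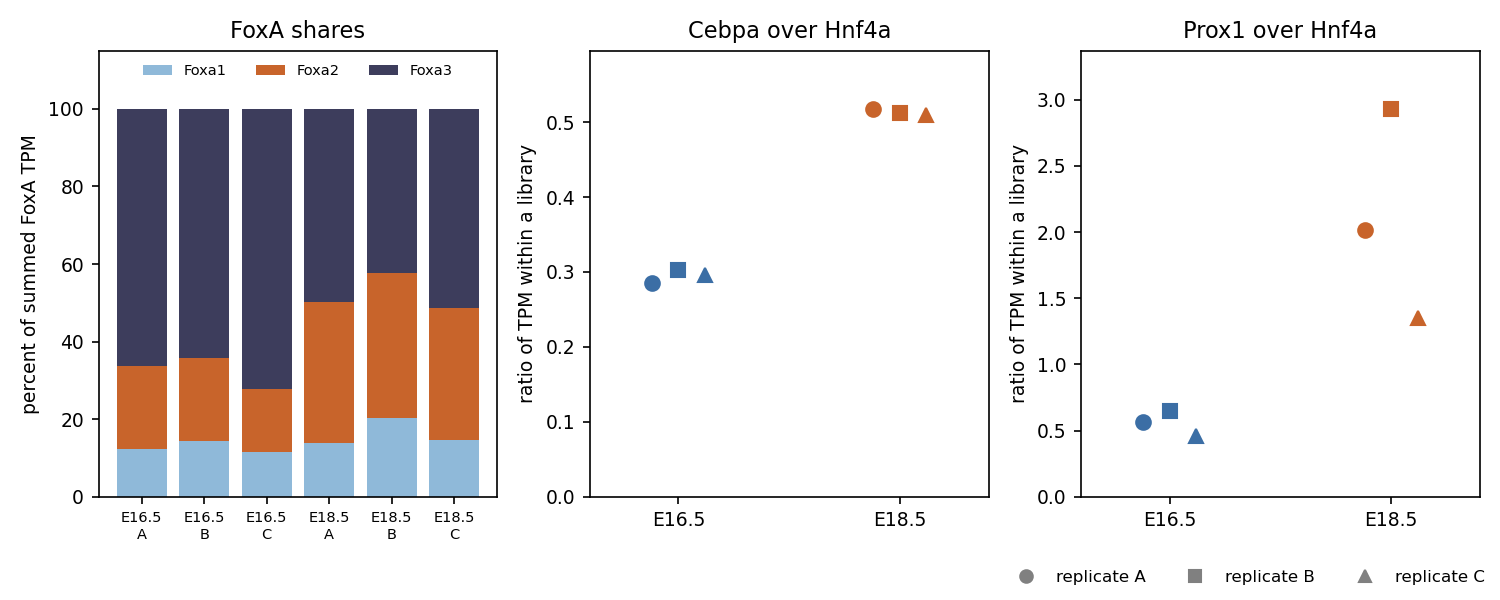
Left, percent of the summed FoxA TPM held by Foxa1, Foxa2 and Foxa3 in each of the 6 libraries (bars from 0 to 100); middle and right, TPM of Cebpa and of Prox1 divided by that of Hnf4a in the same library (points, axes from 0). Foxa3 held 64.1% or more at E16.5 and at most 51.2% at E18.5, the Cebpa ratio was 0.285 to 0.303 at E16.5, against 0.510 to 0.518 at E18.5, and the Prox1 ratio passed 1 in every E18.5 library.

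Cebpa (ENSMUSG00000034957.10; chr7:35119293-35121928, plus strand, 1 exon) encodes C/EBP alpha. Its level was 71.8, 74.8 and 75.6 TPM at E16.5, against 89.7, 64.6 and 100 TPM at E18.5. The E18.5 libraries lay on both sides of the E16.5 level, with replicate B below it and replicates A and C above it. The log2 change of 0.17 (SE 0.17, 95% interval -0.23 to 0.57) was not called (limma adjusted p = 0.453), and its sign turned with median-of-ratios scaling, to -0.29, and with quantile normalization, to -0.077.

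Cebpb (ENSMUSG00000056501.3; chr2:167688915-167690418, plus strand, 1 exon) encodes C/EBP beta, a partner of C/EBP alpha that responds to inflammatory and hormonal signals. It was low, at 3.57, 5.97 and 6.25 TPM at E16.5, against 7.19, 3.90 and 7.20 TPM at E18.5, and rested on 46, 70 and 75 reads at E16.5, against 74, 30 and 44 reads at E18.5. The exact 95% interval of E18.5 replicate B, 2.63 to 5.57 TPM, covers counting error only and already includes the level of E16.5 replicate A. The stages overlapped, and the log2 change of 0.17 (95% interval -0.54 to 0.88, limma adjusted p = 0.676) was not called and turned to -0.22 with median-of-ratios scaling. Relative to Cebpa, Cebpb stood at 0.0496, 0.0798 and 0.0827 at E16.5, against 0.0802, 0.0604 and 0.0718 at E18.5, a mean log2 difference of 0.029 (exact permutation p = 0.9, two-sided), which ran from -0.21 without E16.5 replicate A to 0.16 without E16.5 replicate C. An opposite-strand gene, Tmem189, shares 312 bases, or 20.7%, of the Cebpb exon and was at 7.23 to 11.6 TPM at E16.5, against 3.94 to 6.35 TPM at E18.5. Whether the counting used the strand is not given in the sources used here, so the value of Cebpb is uncertain to that extent.

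Tbx3 (ENSMUSG00000018604.18; chr5:119670669-119684724, plus strand) encodes a T-box repressor that holds hepatoblasts in the hepatocyte direction. Its level was 5.95, 5.57 and 4.22 TPM at E16.5, against 1.83, 1.39 and 2.16 TPM at E18.5, from 338, 288 and 223 reads and from 83, 47 and 58 reads. The exact 95% intervals of the nearest libraries, 3.68 to 4.81 TPM for E16.5 replicate C and 1.64 to 2.79 TPM for E18.5 replicate C, did not meet. The mean was 5.25 ± 0.910 TPM at E16.5, against 1.79 ± 0.385 TPM at E18.5 (SD, n = 3), a 2.93-fold difference and the largest fall of the group, with a log2 change of -1.16 (SE 0.24, 95% interval -1.74 to -0.59, limma adjusted p = 0.0177). With median-of-ratios scaling it was -1.49 (limma adjusted p = 0.0128). Without E16.5 replicate A or B, or E18.5 replicate A or B, the limma adjusted p lay between 0.0503 and 0.0588, and with a minimum mean of 5 TPM the gene was not tested.

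**Figure D3:**
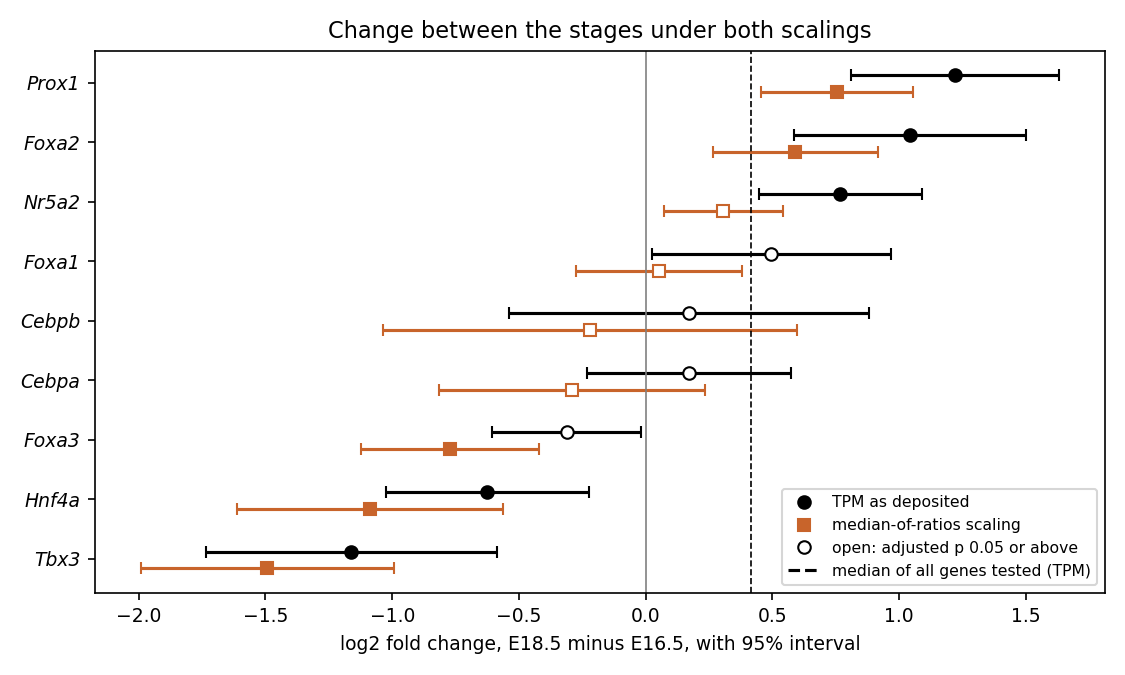
Log2 fold change of E18.5 over E16.5 for each gene (horizontal axis) with its 95% interval, from TPM as deposited (black circles) and after median-of-ratios scaling (orange squares); open symbols have a limma adjusted p of 0.05 or above, and the dashed line is the median of all genes tested, 0.42. Prox1 and Foxa2 were called higher and Hnf4a and Tbx3 lower under both scalings, Nr5a2 was called only as deposited and Foxa3 only after rescaling.

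The order of the levels changed at the top. At E16.5 the order from high to low was Hnf4a, Prox1, Foxa3, Nr5a2, Cebpa, Foxa2, Foxa1, Cebpb and Tbx3, and the libraries of neighbouring genes overlapped for Nr5a2 and Cebpa, Foxa2 and Foxa1, and Cebpb and Tbx3. At E18.5 Prox1 came first, with 1.98 times the mean of Hnf4a, followed by Hnf4a, Nr5a2, Cebpa, Foxa3, Foxa2, Foxa1, Cebpb and Tbx3. There the libraries of Hnf4a and Nr5a2 overlapped, as did those of Cebpa and Foxa3.

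Ratios to Hnf4a were picked once their values were known and are given as a description. Prox1 stood at 0.563, 0.651 and 0.461 times Hnf4a at E16.5, against 2.02, 2.93 and 1.35 times at E18.5, so that the transcript of Prox1 was the rarer of the pair in every E16.5 library and the more abundant in every E18.5 library. Nr5a2 stood at 0.265 to 0.329 times Hnf4a at E16.5, against 0.555 to 1.11 times at E18.5. Cebpa stood at 0.285, 0.303 and 0.296 times Hnf4a at E16.5, against 0.518, 0.512 and 0.510 times at E18.5. The highest E18.5 library was 1.55 times the lowest for Cebpa and 1.56 times for Hnf4a. Their ratio there was 0.513 ± 0.00393 (SD, n = 3). Cebpa rested on 1617, 870 and 1074 reads in E18.5 replicates A, B and C. Its exact interval for counting error in E18.5 replicate B was 60.4 to 69.0 TPM. This spread of the ratio is narrower than counting error, so it does not measure how closely the 2 genes moved together.

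Other factors of the hepatic network gave a mixed picture. Of 20 listed, among them nuclear receptors and GATA factors, 19 were tested, 7 were called higher and 0 lower, and their median change was 0.41, beside 0.42 for all genes. The largest called rises were those of Zbtb20, a repressor of Afp, at 1.62, Nr0b2, the bile acid-responsive repressor SHP, at 1.43 and Gata6 at 1.21 (limma adjusted p at most 0.0212). At an unadjusted p under 0.05 limma had 9 higher and 2 lower, median-of-ratios scaling gave 2 called higher and 2 lower, and limma voom on recovered reads 4 higher and 3 lower of 16 tested. Zbtb20 and Gata6 were called higher under both scalings.

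Transcription factors of the biliary lineage were mostly called higher. Of 11 listed, 9 were called higher and 0 lower at E18.5, with a median change of 1.37, and 5 were called higher with median-of-ratios scaling. No member was lower at an unadjusted p under 0.05 in limma or called lower with limma voom. Ehf changed by 1.86, Onecut2 by 1.70 and Sox9, the gene on which the sort rests, by 1.68. Onecut2 and Sox9 were called higher under both scalings, whereas Ehf was not called with median-of-ratios scaling (limma adjusted p = 0.130). The rises of Prox1 and Foxa2 were in the range of this list, whose called members began at 0.75, and that of Nr5a2 was at its lower end. Among 18 other forkhead genes 14 were tested, of which 8 were called higher and 0 lower, led by Foxo4 at 1.13, with a median of 0.66. None of these was lower at an unadjusted p under 0.05 or called lower with limma voom, and 1 was called in each direction after median-of-ratios scaling. Of the 4 other C/EBP family genes 3 were tested, and 1 was called, Cebpg at 0.47, which was 0.011 and not called with median-of-ratios scaling. Of the 6 other T-box genes 2 were tested, and 0 were called by limma or limma voom, with 0 at an unadjusted p under 0.05.

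**Figure D4:**
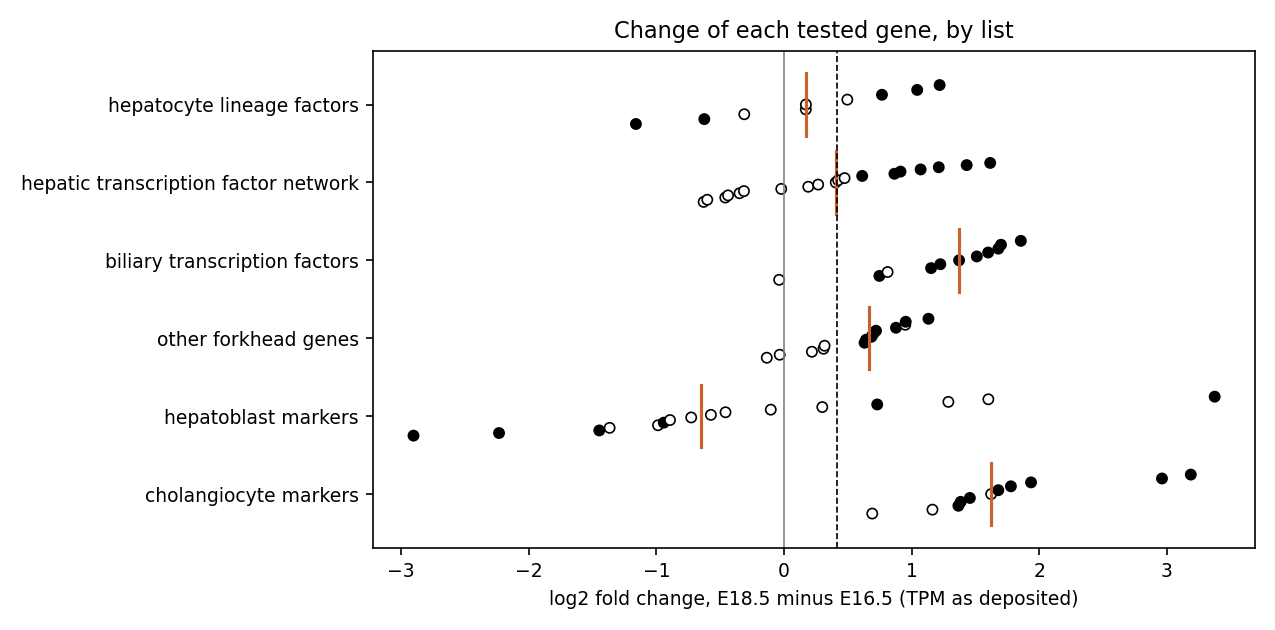
Log2 fold change of E18.5 over E16.5 (horizontal axis, TPM as deposited) of every tested gene of 6 lists; filled points have a limma adjusted p under 0.05, the orange bar is the median of the list, and the dashed line is the median of all genes tested, 0.42. The hepatocyte lineage factors spread from -1.16 to 1.22, whereas all but 1 of the 11 biliary factors lay above 0.

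The summed levels of hepatoblast and of cholangiocyte markers did not overlap between the stages. All 16 hepatoblast markers were detected, and their sum was 159967, 168805 and 202010 TPM at E16.5 (replicates A, B and C), against 74639, 37456 and 86867 TPM at E18.5, most of it Alb, which was not called itself (limma adjusted p = 0.146). These 16 markers do not tell hepatoblasts from hepatocytes. Of them 2 were called higher, G6pc and F9, and 4 lower, among them Afp at -2.90, with a median change of -0.65. With median-of-ratios scaling 1 was called higher and 3 lower. The 12 cholangiocyte markers summed to 2074, 2630 and 773 TPM at E16.5, against 11807, 14089 and 8177 TPM at E18.5, most of it Spp1. Of the 11 tested, 8 were called higher, against 3 with median-of-ratios scaling. The labels call the cells cholangiocytes, and the biliary markers Sox9, Epcam, Spp1 and Krt19 were present in every library, but so were the 16 hepatoblast markers.

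Within a stage the summed markers also moved with some of the factors. Replicate B had the highest and replicate C the lowest cholangiocyte sum in both stages, and Prox1, Nr5a2 and Foxa1 followed that order of replicates in both stages. As most of the sum was Spp1, its order is largely that of 1 gene. Sox9 and Epcam had the same order in both stages. Krt19 did not: it was highest in replicate A at E16.5, at 122 TPM, and in replicate C at E18.5, at 250 TPM. Hnf4a was highest in replicate C and lowest in replicate B in both stages. E18.5 replicate B, the library with the lowest hepatoblast sum, was the lowest E18.5 library for Hnf4a, Cebpa, Cebpb, Foxa3 and Tbx3 and the highest for Prox1, Nr5a2 and Foxa1. With 3 libraries a stage these orders are a description, and the part of the cell makeup in the changes between stages was not tested.

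**Figure D5:**
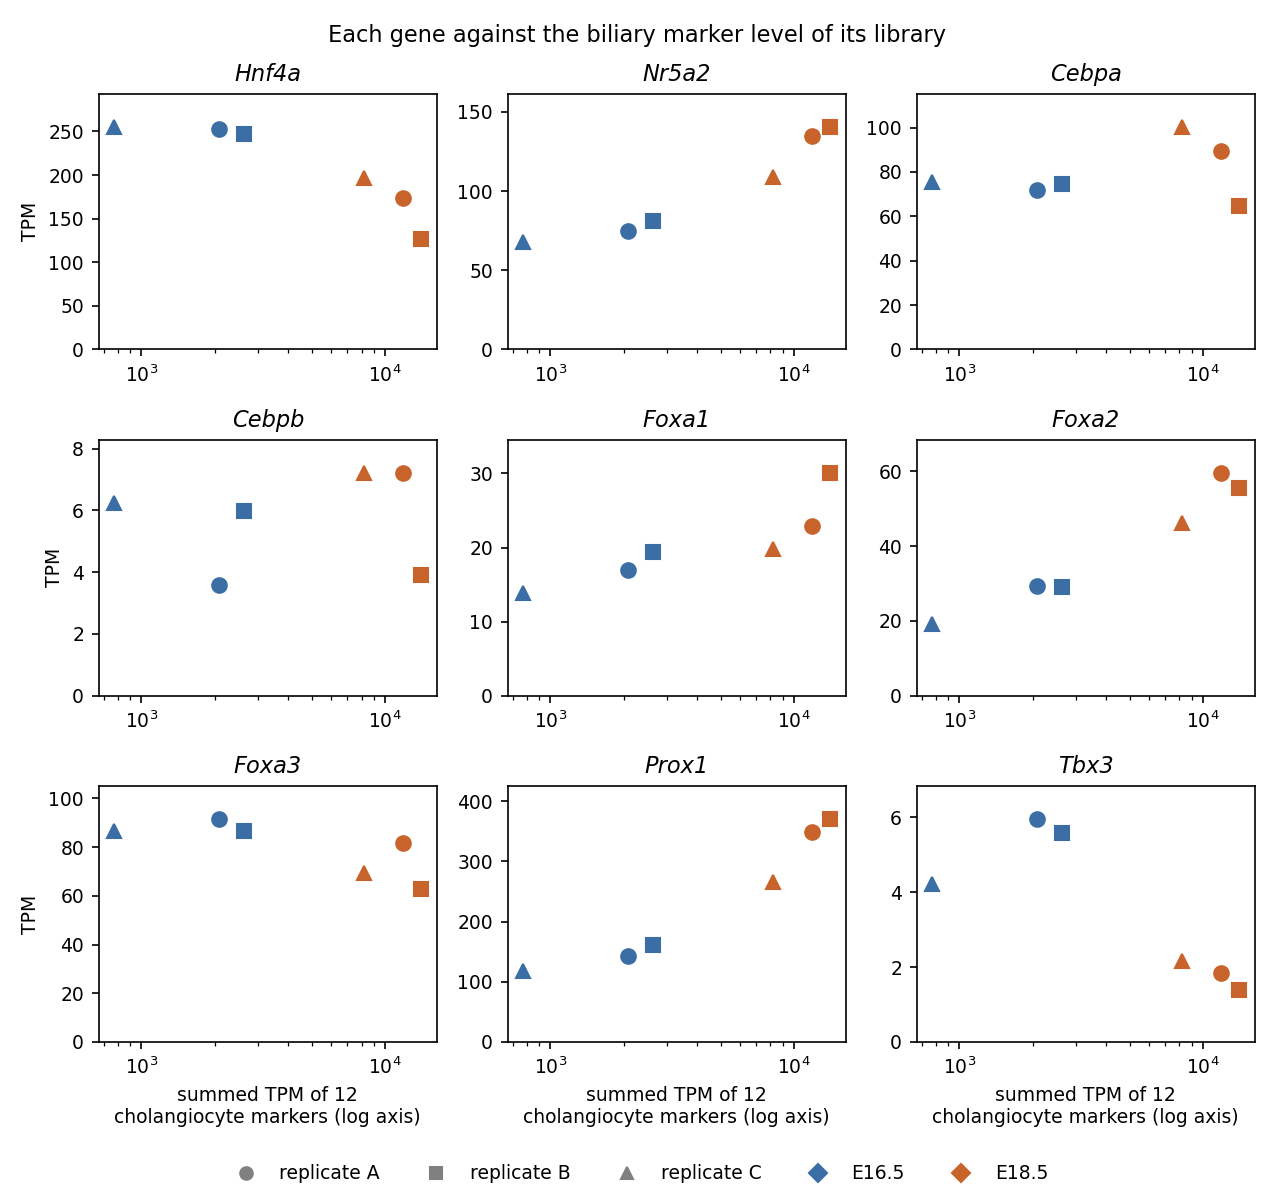
TPM of each gene (vertical axes, from 0) against the summed TPM of 12 cholangiocyte markers in the same library (horizontal log axis), for 3 libraries of E16.5 (blue) and 3 of E18.5 (orange). The marker sum was 773 to 2630 TPM at E16.5, against 8177 to 14089 TPM at E18.5, and most of it was Spp1 in every library. Prox1, Nr5a2 and Foxa1 stood higher where the sum was higher, within each stage as well as between the stages. Hnf4a stood lower there, but within E16.5 only by differences inside counting error. Within each stage Foxa2 was highest in replicate A, although replicate B had the highest sum, but the counting-error intervals of Foxa2 in these replicates overlapped in both stages.

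Markers of other cells were also detected. The 8 megakaryocyte markers summed to 2705 to 8055 TPM at E16.5, above the cholangiocyte sum in every library of that stage, against 67.9 to 633 TPM at E18.5, and all 8 were called lower under both scalings. The 8 pancreatic acinar markers reached 2425 TPM in E16.5 replicate A, against 81.4 to 223 TPM in the other E16.5 libraries and 18.6 to 53.5 TPM at E18.5. Ptf1a was detected in E16.5 replicate A alone, but only at 0.309 TPM, so its absence elsewhere says little. Of the acinar markers 2 of the 6 tested were called lower, against 0 with median-of-ratios scaling or limma voom and 3 at an unadjusted p under 0.05. Without E16.5 replicate A the changes of Nr5a2, Foxa2 and Prox1 were 0.77, 1.14 and 1.24 and were still called (limma adjusted p at most 0.0365). Those of Hnf4a, at -0.62, and Tbx3, at -1.08, were not. Both calls also ended without E16.5 replicate B, E18.5 replicate A or E18.5 replicate B, so their loss was not particular to E16.5 replicate A. Pancreatic endocrine markers summed to 4.04 to 43.8 TPM over all libraries, erythroid markers to 105 to 547 TPM, myeloid markers to 102 to 269 TPM and mesenchymal markers to 101 to 642 TPM. Of these lists and the endothelial one, 3 of 10 myeloid markers tested, 3 of 9 mesenchymal markers tested and 2 of 10 endothelial and lymphatic markers were called higher, which with median-of-ratios scaling became 0, 2 and 0 higher and 1 myeloid marker lower. With TPM as deposited and with median-of-ratios scaling 1 of 8 erythroid markers was called lower, and 0 of 6 endocrine markers were called by limma or limma voom, with 0 at an unadjusted p under 0.05. Their part in the changes of the 9 genes was not tested.

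Several genes lie across the spans of the group on the opposite strand, and without the strand, reads over shared bases could not be told apart. Hnf4aos, antisense to Hnf4a and sharing no exon with it, was at 4.21 ± 1.54 TPM at E16.5, against 1.11 ± 0.515 TPM at E18.5 (SD, n = 3), a log2 change of -1.29 (limma adjusted p = 0.0293), from 48, 21 and 30 reads and from 9, 7 and 2 reads. Gm28172, an antisense gene across Prox1 with no shared exon, was at 33.2, 39.3 and 23.0 TPM at E16.5, against 60.4, 84.7 and 47.2 TPM at E18.5, a log2 change of 0.98 (limma adjusted p = 0.0323), in the order B, A, C of Prox1 in both stages. With median-of-ratios scaling Hnf4aos was again called, at -1.60 (limma adjusted p = 0.0226), and Gm28172 was not, at 0.52 (limma adjusted p = 0.125). Prox1os shares 133 bases, 1.59%, of the Prox1 exons and was not called (0.76, limma adjusted p = 0.0677). Gm45091 and Tbx3os1 share 1.93% and 1.74% of the exons of Cebpa and Tbx3, with at most 30 reads in a library.

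The genes whose levels followed Hnf4a most closely over the 6 libraries were Shmt2, Vwce, Amacr, Pglyrp2 and Serpind1, with a Pearson correlation of log2(TPM + 1) of 0.997 to 0.999 among 11382 protein-coding genes averaging 5 TPM or more. Shmt2, a mitochondrial serine hydroxymethyltransferase, was at 148, 144 and 146 TPM at E16.5, against 87.4, 59.1 and 107 TPM at E18.5, the same order of libraries as Hnf4a at E18.5. Serpind1, which encodes the plasma protein heparin cofactor II, was at 381, 377 and 478 TPM at E16.5, against 109, 35.4 and 151 TPM at E18.5. Within the group the correlation with Hnf4a was 0.87 for Foxa3, 0.14 for Cebpb and 0.12 for Cebpa, and -0.85 for Foxa2, -0.92 for Prox1, -0.93 for Foxa1 and -0.93 for Nr5a2. These correlations rest on 6 libraries in 2 stages, share the libraries' scaling and stage difference, and are given as a description.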

How the data were processed

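Reads had been quality-checked (FastQC) and trimmed (Trimmomatic) by the authors, who mapped them to GRCm38 using HISAT2, obtained gene counts using HTSeq-count with a GENCODE annotation, and deposited them as TPM of 52550 genes in 6 libraries. The submitters' processing notes also list Bowtie, with no role. The library kit was stranded, but the sources used here do not give the strand setting at counting. Exon lengths and coordinates were taken from GENCODE vM21 of the same build, which holds 52403 of the identifiers. The 9 genes, the other lists and the tests were chosen with earlier results of these data known.

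The stages were compared in R 4.3.3 by limma 3.58.1, using lmFit and then eBayes with its trend option, on log2(TPM + 1) of genes averaging 1 TPM or more, with Benjamini-Hochberg adjustment, and the steps were tested on simulated data. The 3 E16.5 and 3 E18.5 libraries were assigned from their labels, and their replicate letters were not used as pairs. Exact permutation tests (two-sided) were computed in Python 3.11.15. Read numbers were worked back from TPM, exon length and the value of 1 read, with whole numbers taken within 0.01, for 49583 genes. They served for depth, exact 95% (Clopper-Pearson) intervals, which cover counting error only, and limma voom as an alternative. Libraries of one stage differed by more than sampling noise, so none was a copy of another. The alternatives were a pseudocount of 0.1, no filter, a filter at a mean of 5 TPM, scaling by median of ratios, quantile normalization, rescaling without abundant genes (haemoglobin, ribosomal protein, small structural RNA and Alb), eBayes without the trend or robust, the replicate letters as a block, voom, and leaving out each library. Promoters came from RefSeq, which matched 8 of the 9 genes.

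Named were all 9 genes, of each other list at most the 3 called genes with the largest rise and the 3 with the largest fall, genes antisense to or sharing exons with the 9, and the 5 genes most like Hnf4a. The cell type markers named for presence or absence, for their order over replicates or for their part in a sum were chosen after their values were seen. Values of 1 listed marker are not reported here by name.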

Additional observations from a re-analysis of the deposited data

How the results depend on the processing

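Of the 9 genes, Prox1, Foxa2, Nr5a2, Foxa1, Hnf4a, Foxa3 and Tbx3 kept their direction under every alternative that tested them. The log2 change of Cebpa turned to -0.29 with median-of-ratios scaling and to -0.077 with quantile normalization, and that of Cebpb to -0.22 and -0.26. Leaving out 1 library gave -0.041 (without E16.5 replicate A) to 0.42 for Cebpb. Over all genes, 7000 were called, against 4282 with no filter, 3795 with median-of-ratios scaling, 3796 with quantile normalization, and 1472 (without E18.5 replicate A) to 5686 (without E18.5 replicate C) when a library was left out. The count of members called lower was 1 with no filter, with a mean of at least 5 TPM and without the trend, and 0 to 2 on leaving out a library; it was 0 without E16.5 replicate A or B and without E18.5 replicate A or B. The count of members called higher was 1 to 3 on leaving out a library, and 1 without E18.5 replicate A. The median change of the members was 0.33 with the minimum of 5 TPM, -0.22 with median-of-ratios scaling and -0.077 with quantile normalization, and 0.047 to 0.35 on leaving out a library, the highest without E18.5 replicate B. A mean of at least 5 TPM removed Tbx3, and leaving out a library leaves fewer samples; for the scalings the cause was not tested. With the replicate block, 7314 genes were called, Foxa1 was called as well (limma adjusted p = 0.0357), and no other member changed its call; the deviations of same-lettered libraries correlated at -0.0425, 0.0814 and 0.140, so the letters were not taken as pairs. On leaving out a library, the Foxa1 share differed between the stages by 1.50 (without E18.5 replicate B) to 4.65 points, and the shares of Foxa2 and Foxa3 kept their direction. Depth limits Cebpb most, at 30 reads in one library.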
